A study of Mus musculus with 4 samples.

Results

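The myosin light chain isoforms of striated muscle were described across the myocyte subtypes and regions of the embryonic mouse heart: Myl1, Myl2, Myl3, Myl4 and Myl7, 5 of the 27998 genes in the count tables, taken by symbol. All 5 were found in every library. Each had UMIs in every myocyte class, and each passed the filter on low counts in the 3 tests below. The cells came from CD1 mouse hearts at embryonic day 16.5, microdissected into 4 regions: that of the sinoatrial node (SAN), that of the atrioventricular node and His bundle (AVN/His), and the left and right ventricular regions of the bundle branches and Purkinje fibers (BB/PF). All 4 libraries were wild-type hearts with no treatment, and each region gave 1 library of the 10x Genomics 3' assay, which counts unique molecular identifiers (UMIs) near the 3' end of each transcript. A comparison within 1 library therefore had no replicate, and the labels do not say that the libraries come from separate animals, so any p-value measures only how far these libraries spread.

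A myosin head carries an essential and a regulatory light chain on its lever arm, and phosphorylation of the regulatory chain tunes contraction. Myl7 encodes the atrial regulatory chain and Myl2 the regulatory chain of ventricle and slow muscle. Among the essential chains, Myl4 encodes the atrial and embryonic form, Myl3 the form of ventricle and slow muscle, and Myl1 the form of fast skeletal muscle. The early heart tube expresses atrial and ventricular forms together, and the chambers sort them out during development, which is why these genes serve as chamber markers.

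Of 22805 barcodes, 21035 had at least 500 genes and 1000 UMIs (4356 to 5934 a library, with medians of 8479.5 to 9272 UMIs and totals of 49328589 to 58029660 UMIs), and 230 barcodes occurred in more than 1 library. Clusters were made without the light chains or other contractile genes and were named from markers. SAN-like cells (135) carried 10 of 11 SAN markers. In the AVN/His library, 2 clusters carried 7 of 10 AVN/His markers. They were kept apart by whether Sln, an atrial calcium pump regulator, passed the marker cutoff. Cells called Sln-led (75) had Myl7 and then Sln as leading genes, and Clu-led cells (113) had Clu. PF-like cells, of which 40 were left and 19 right, carried 10 of 10 Purkinje fiber markers. Working myocytes were atrial-like (2824 in the SAN and 72 in the AVN/His library) or ventricular-like (2512 in the AVN/His, 4216 left and 2800 right). A cluster of 94 cells led by Shox2, a transcription factor of the node, carried only 6 of 11 SAN markers, among them Tbx3 at 0.336 UMIs per 10000 against 1.60 in SAN-like cells, and is called the Shox2-led cluster. Another 88 to 120 myocytes a library, from clusters led by hemoglobin, collagen or endothelial genes, stayed unnamed and entered no comparison of subtypes.

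The genes lie apart in the genome (GRCm38, GENCODE): Myl1 on chromosome 1 from 66924295 to 66945404 (minus strand), Myl2 on chromosome 5 from 122100951 to 122113472, Myl3 on chromosome 9 from 110741861 to 110769798, and Myl4 and Myl7 at opposite ends of chromosome 11, from 104550663 to 104595753 and from 5896637 to 5898782 (minus strand). The upstream sequences of Myl3 and Myl7, a ventricular and an atrial form, are shown because each holds a CArG box, the motif of serum response factor, which drives many sarcomere genes. The box is in capitals, and both are in GRCm38.p6. The run of Myl7 (chr11:5898783-5899032, minus strand) ends at the base before the RefSeq start, and that of Myl3 (chr9:110763428-110763645, plus strand) ends 32 bases before it, where an annotated exon begins.
Myl3: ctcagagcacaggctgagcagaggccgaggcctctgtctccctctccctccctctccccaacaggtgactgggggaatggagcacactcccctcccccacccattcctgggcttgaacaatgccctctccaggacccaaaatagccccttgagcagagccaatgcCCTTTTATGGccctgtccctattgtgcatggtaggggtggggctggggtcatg
Myl7: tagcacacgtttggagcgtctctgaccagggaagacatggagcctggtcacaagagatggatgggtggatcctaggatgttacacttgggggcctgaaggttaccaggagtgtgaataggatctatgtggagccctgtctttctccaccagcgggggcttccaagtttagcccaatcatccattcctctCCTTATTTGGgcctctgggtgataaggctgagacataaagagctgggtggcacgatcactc
The first base of the box lay 85 bases upstream of the start in Myl3 and 61 bases in Myl7. Of 32851 RefSeq promoters, 482 (1.47%) held a CArG box on either strand within 250 bases upstream. No match was found in the same window of Myl1, Myl4 or the 2 RefSeq starts of Myl2, which lie upstream of the GENCODE gene start. The Myl1 window lies within the GENCODE gene and holds 103 annotated exon bases. In the Myl4 window 208 of 250 bases are annotated exon. The lack of a match bears on these windows only. All 5 genes matched the RefSeq table, and a match is a description of letters only.

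The levels, in UMIs per 10000 UMIs of the summed cells, split the heart into an atrial and a ventricular pattern, and the conduction cells did not all follow their surroundings. Because a 3' UMI is counted once per transcript, whatever its length, levels of different genes are set beside each other as UMIs. Differences of capture or mapping between the genes were not measured. Poisson and binomial 95% intervals are exact and cover counting error only. In bulk sums of this kind, fewer expressing cells and less RNA per cell cannot be told apart, so shares of cells are given beside the levels.

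**Figure D1:**
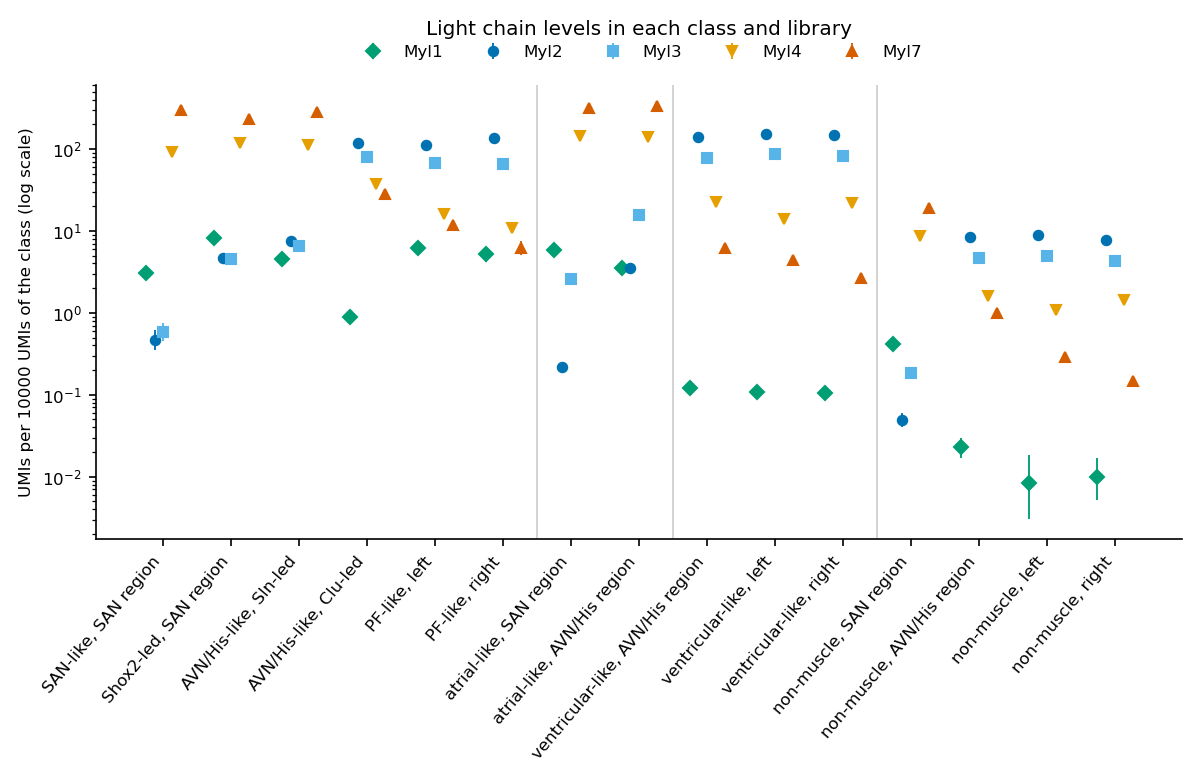
UMIs per 10000 of the 5 light chain genes (log axis) in each class and library, conduction classes left of the working myocytes and non-muscle cells last; bars are exact Poisson 95% intervals. Myl7 and Myl4 are highest in the SAN-like, Shox2-led, Sln-led and atrial-like columns, Myl2 and Myl3 in the Clu-led, PF-like and ventricular-like columns, and Myl1 is above 3 per 10000 in the atrial pattern and in PF-like cells.

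Myl7, the atrial regulatory chain, was the most abundant of the 5 in every atrial-pattern class. It reached 314 UMIs per 10000 in the atrial-like cells of the SAN library and 337 in those of the AVN/His library, against 6.13, 4.45 and 2.69 in the ventricular-like cells of the AVN/His, left and right libraries. Myl7 rose by 6.03 on the log2 scale in edgeR's quasi-likelihood test on the sums (SE 0.30, adjusted p = 9.2e-06). Myl2, its ventricular counterpart, was at 0.220 and 3.50 in the atrial-like cells of the SAN and AVN/His libraries, against 141, 152 and 150 in ventricular-like cells. It fell by 6.71 on the log2 scale in atrial-like cells (SE 1.08, adjusted p = 0.00337, edgeR). The 3.50 of the AVN/His library was under the 8.44 of its non-muscle cells, so it is not read as expression. Of the 594 Myl2 UMIs in the 2824 atrial-like cells of the SAN library, 364 were in 4 cells that held more Myl2 than Myl7, so that the level of the class rests largely on these cells.

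The essential chains were split less sharply than the regulatory chains. Myl4, the atrial form, was at 145 and 139 UMIs per 10000 in the atrial-like cells of the SAN and AVN/His libraries, against 22.3, 13.9 and 21.6 in the ventricular-like cells of the AVN/His, left and right libraries. It rose by 2.70 on the log2 scale (SE 0.19, adjusted p = 5.29e-05, edgeR), less than the 6.03 of Myl7, and ventricular-like cells kept Myl4 as a clear minor form. Myl3, the ventricular form, was at 2.58 and 15.5 in atrial-like cells, against 78.2, 86.0 and 82.3 in ventricular-like cells, and it fell by 3.41 on the log2 scale in atrial-like cells (SE 0.63, adjusted p = 0.00665, edgeR). The atrial-like cells of the SAN library had less Myl3 than those of the AVN/His library, with a log2 ratio of -2.58 (-2.66 to -2.50), whereas Myl4 there differed by 0.07 (0.04 to 0.09). In the atrial-like cells of the AVN/His library the median Myl3 level per cell was 4.77 and the upper quartile 28.4, so the cells were unequal. That median was close to the 4.70 Myl3 UMIs per 10000 of the library's non-muscle cells, which had 0.183 in the SAN library. The part of this background in the difference between the libraries was not tested.

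Myl1, the fast skeletal essential chain, followed the atrial forms at a far lower level. It was at 5.92 and 3.52 UMIs per 10000 in the atrial-like cells of the SAN and AVN/His libraries, against 0.122, 0.109 and 0.106 in the ventricular-like cells of the AVN/His, left and right libraries. Myl1 rose by 5.25 on the log2 scale (SE 0.21, adjusted p = 3.38e-06, edgeR). With each cell thinned to 1500 UMIs, 48.4% and 34.7% of the atrial-like cells had a Myl1 UMI, against 1.99%, 1.19% and 1.21% of the ventricular-like cells and 3.69% of the non-muscle cells of the SAN library (unthinned 86.1% and 70.8%, against 6.54% to 8.0% and 10.9%; median depths of 9375 and 12511, against 10591.5, 8575 and 9309.5, and 7576 UMIs). The share in ventricular-like cells was also above that of non-muscle cells in their own libraries, of which 0.249%, 0 of 613 (which allows a share of up to 0.489%) and 0.351% had a UMI after thinning. In atrial-like cells 3 members were called higher and 2 lower, where 11.7% of the 13033 genes tested were called higher and 10.0% lower (21.7% in all). Within the AVN/His library, the only one with both working classes, the log2 differences of the same fit were 4.70 for Myl1, -5.49 for Myl2, -2.49 for Myl3, 2.49 for Myl4 and 5.63 for Myl7, with no test. With the free RNA of non-muscle cells subtracted, the call of Myl3 was lost (adjusted p = 0.0521, edgeR). This fit subtracted the whole non-muscle profile at the full depth of each sum, so the loss is not read as background.

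The total of the isoforms differed as well. Regulatory chains (Myl2 plus Myl7) summed to 314 and 341 UMIs per 10000 in atrial-like cells, against 147, 156 and 152 in ventricular-like cells, and essential chains (Myl1, Myl3 and Myl4) summed to 154 and 158 in atrial-like cells, against 101 in the ventricular-like cells of the AVN/His library and close to it in the others. Essential UMIs per regulatory UMI were therefore 0.489 and 0.462 in atrial-like cells, against 0.683, 0.640 and 0.683 in ventricular-like cells, values of RNA and not of protein. Myl1 made up 3.86% and 2.24% of the essential UMIs in atrial-like cells and 0.121%, 0.109% and 0.102% in ventricular-like cells, and reached its highest shares among myocyte classes in PF-like cells (6.91% left, 6.46% right) and the Shox2-led cluster (6.36%).

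Atrial-like cells of the SAN library were themselves divided into 8 clusters, over which Myl4 ranged between 111 and 230 UMIs per 10000, Myl7 between 247 and 426 and Myl1 between 3.24 and 11.7. The highest of all 3 were in the same cluster of 92 cells, led by Crip2. The 24 ventricular-like clusters of the AVN/His library with at least 50 cells held Myl2 between 82.3 and 242, Myl4 between 11.8 and 50.2 and Myl7 between 2.47 and 36.2. Both upper ends of the atrial forms came from a cluster of 65 cells led by Eln and by Rspo3, a Wnt agonist on the AVN/His marker list, in which Myl7 made up 27.8% of the regulatory pair. Clusters were chosen from these cells, so these ranges are a description.

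In the SAN library, the question was whether pacemaker myocytes carry the light chains of their atrial neighbors. SAN-like cells had an atrial pattern with less Myl4: 90.8 UMIs per 10000, against 145 in the atrial-like cells of the same library, a log2 ratio of -0.68 (95% interval -0.70 to -0.65). Myl7 was close in the same cells, at 295 against 314 (log2 ratio -0.09, -0.11 to -0.07). Essential UMIs per regulatory UMI were accordingly 0.320 in SAN-like cells, against 0.489 in atrial-like cells, the lowest ratio among the myocyte classes. All 135 SAN-like cells had Myl4 and Myl7 UMIs, and the median per cell was 85.8 for Myl4, against 142 in atrial-like cells. There was 1 library, and no test of these ratios.

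The low-level chains also differed in SAN-like cells. Myl1 was at 3.07 UMIs per 10000, against 5.92 in atrial-like cells (log2 ratio -0.95, -1.10 to -0.80), and 28.1% of SAN-like cells, against 48.4% of atrial-like cells, had a Myl1 UMI after thinning (unthinned 62.2% and 86.1%, at median depths of 7916 and 9375). Myl3 was at 0.588 against 2.58 (log2 ratio -2.14, -2.50 to -1.79). Myl2 was at 0.467 against 0.220, on 54 UMIs in 22 cells, of which the 5 richest cells held 63.0%, and its order is not read further. Non-muscle cells of this library had 0.419 Myl1, 0.0497 Myl2 and 0.183 Myl3 UMIs per 10000.

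The Shox2-led cluster had more of every ventricular or skeletal form than SAN-like cells. Myl1 was at 8.23 UMIs per 10000, the highest of the myocyte classes, against 5.92 in atrial-like cells (log2 ratio 0.48, 0.36 to 0.59). Myl2 was at 4.67 and Myl3 at 4.53, against 0.220 and 2.58 in atrial-like cells. These came from some of its cells: 18 of the 94 had at least 5 Myl2 UMIs, and the 5 richest held 61.9% of the 375 UMIs, yet none had more Myl2 than Myl7. Mylpf, the fast skeletal regulatory chain, was at 4.07 there, against 0.0346 in SAN-like and 0.0733 in atrial-like cells. Mylpf is on the skeletal muscle marker list, and Myl2 and Mylpf are among the 5 leading genes of the cluster, so the values are a description.

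The AVN/His library held both working patterns in 1 library, so the conduction cells could be set beside each with no difference of library. Sln-led cells had the atrial pattern. Myl7 and Myl4 are among the leading genes of their cluster, so the values are a description. Myl7 was at 279 UMIs per 10000 and Myl4 at 113, against 337 and 139 in the atrial-like cells (log2 ratios -0.27, -0.30 to -0.25, and -0.30, -0.34 to -0.26) and 6.13 and 22.3 in the ventricular-like cells. Myl1 was at 4.52, against 3.52 in atrial-like cells, with 33.3% and 34.7% of cells positive after thinning (unthinned 54 of 75 and 51 of 72 cells, at median depths of 10200 and 12511). Myl2 was at 7.57 and Myl3 at 6.47, against 3.50 and 15.5 in atrial-like cells, and against 8.44 and 4.70 in the non-muscle cells of the library. The Myl2 of Sln-led cells was above that of the epicardial-like, endothelial-like, mural-like and macrophage-like cells of the library (1.73 to 7.34), under that of its fibroblast-like cells, and above the 3.57 of the non-muscle cells with a Scrublet score under 0.2, so it is not read as background or as expression.

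Clu-led cells had the ventricular chains with added atrial ones. Myl2 was at 118 UMIs per 10000, against 141 in ventricular-like cells (log2 ratio -0.26, -0.28 to -0.23), and Myl3 at 80.7 against 78.2 (0.04, 0.02 to 0.07), a difference that changed sign in 2 other clusterings. Myl7 was at 27.9, against 6.13 in ventricular-like and 337 in atrial-like cells: 4.55 times the level of ventricular-like cells (log2 ratio 2.19, 2.14 to 2.24). Myl4 was at 37.7 against 22.3 (0.76, 0.72 to 0.80). The added atrial chains were not particular to Clu-led cells. The ventricular-like cluster of 65 cells led by Eln and Rspo3 had more of both, with Myl7 at 36.2 and Myl4 at 50.2. Myl7 made up 27.8% of the regulatory pair there, against 19.1% of the summed pair in Clu-led cells. Myl1 was at 0.887, against 0.122 in ventricular-like cells (2.87, 2.55 to 3.18), and 10.6% of Clu-led cells, against 1.99% of ventricular-like and 0.249% of non-muscle cells, had a Myl1 UMI after thinning (unthinned 39.8%, against 8.0% and 1.08%, at median depths of 11003, 10591.5 and 7241). The atrial marker Sln was at 1.26 in Clu-led cells, against 38.0 in Sln-led cells and 0.265 in ventricular-like cells, Mybphl had no UMI in 113 cells (upper limit 0.0227 per 10000) against 2.40 in atrial-like cells, and the whole atrial list of 8 markers, 7 of them with a UMI, summed to 3.03, against 2.09 in ventricular-like and 201 in atrial-like cells. In the clustering with no regression, which left 21 Clu-led cells, the log2 ratio of Myl7 was 0.66 and that of Myl4 0.26.

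The addition was seen cell by cell. For each cell, the regulatory share is Myl7 as a percent of Myl7 plus Myl2, and the essential share is Myl4 as a percent of Myl4 plus Myl3, in cells with at least 10 UMIs of the pair. The median regulatory share was 99.2% in Sln-led and 8.06% in Clu-led cells, against 99.5% in atrial-like and 2.13% in ventricular-like cells of the library. The median essential share was 98.3% and 30.5%, against 97.0% and 18.8%. Shares between 10% and 90%, a range that marks cells with both forms, were found for the regulatory pair in 45.0% of 109 Clu-led cells, against 9.79% of ventricular-like and 4.17% of atrial-like cells. Of the 109 Clu-led cells, 49 lay between in both pairs, and the median essential share was 35.6% in the cells with a regulatory share between 10% and 90%, against 22.9% in those under 10%. Clu-led cells thus spread over a wide range, and 14 were under 10% in both pairs.

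**Figure D2:**
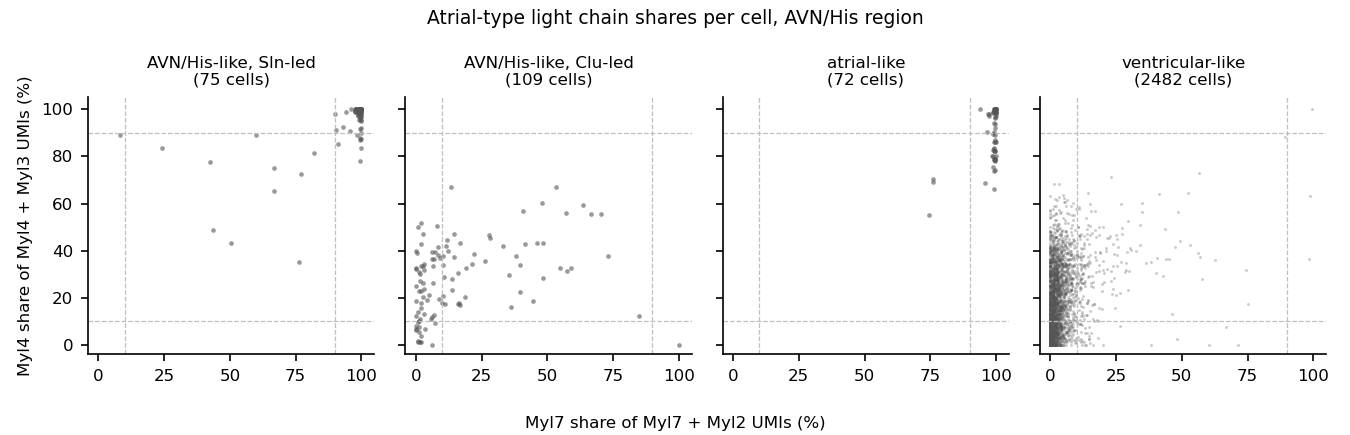
Essential share (Myl4 of Myl4 plus Myl3, percent) against regulatory share (Myl7 of Myl7 plus Myl2, percent) for single cells of the AVN/His library, in 4 panels: Sln-led (75 cells), Clu-led (109), atrial-like (72) and ventricular-like (2482); dashed lines mark 10% and 90%. Sln-led and atrial-like cells lie mostly in the upper right corner, ventricular-like cells along the left edge, and 49 of the Clu-led cells between the lines on both axes.

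Across libraries, a mixed essential pair was common in ventricular-like cells, and a mixed regulatory pair was not. An essential share between 10% and 90% was found in 70.8%, 53.8% and 71.7% of the ventricular-like cells of the AVN/His, left and right libraries, but a regulatory share in that range in 9.79%, 4.85% and 3.41%. In atrial-like cells of the SAN library the figures were 5.71% and 0 of 2819 cells, which allows a share of up to 0.106% of cells, and the 4 cells with more Myl2 than Myl7 lay under 10%. In the atrial-like cells of the AVN/His library, a mixed essential pair was found in 29 of 72 cells (40.3%) and a mixed regulatory pair in 3 (4.17%). PF-like cells had median regulatory shares of 4.91% (left) and 0.565% (right), against 1.60% and 0.769% in the ventricular-like cells of the same library, and median essential shares of 14.5% and 7.55%, against 11.1% and 18.0%. In the 5 other clusterings the order of the right library turned, with PF-like medians of 1.71% to 1.82% for the regulatory share and of up to 22.3%, all above the 17.9% of ventricular-like cells, for the essential share, and no direction is read from the right values. Medians thinned to 1500 UMIs fell on few UMIs a cell and moved the lowest regulatory shares to 0%.

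Purkinje fibers arise from ventricular myocytes, and PF-like cells were set beside ventricular-like cells to ask how far they keep the ventricular light chains. Myl1 differed most of the 5. It was at 6.25 UMIs per 10000 in the left and 5.25 in the right PF-like cells, against 0.109 and 0.106 in ventricular-like cells, 57.2 and 49.4 times as high (log2 ratios 5.84 and 5.63, against 5.02 to 5.32 and 4.33 to 4.53 in the 5 other clusterings), and close to the 5.92 of atrial-like cells in the SAN library. After thinning, 52.5% and 47.4% of PF-like cells had a Myl1 UMI, against 1.19% and 1.21% of ventricular-like cells, and unthinned 39 of 40 and 18 of 19 had one (97.5% and 94.7%, against 6.62% and 6.54%, at median depths of 8329 and 9091, against 8575 and 9309.5). In edgeR's quasi-likelihood test with the library as a block Myl1 rose by 5.39 on the log2 scale (SE 0.16, adjusted p = 1.59e-227). Its log2 fold change was between 4.54 and 5.49 under all 15 alternatives, which include 5 other clusterings with 76 to 88 left and 72 to 83 right PF-like cells. The fit had 1 residual degree of freedom and took the spread from all genes, so its p-values and SEs rest on that pooled spread.

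Myl7 rose as well in PF-like cells, from a low base. It was at 11.9 UMIs per 10000 in the left and 6.17 in the right PF-like cells, against 4.45 and 2.69 in ventricular-like cells, and it rose by 0.97 on the log2 scale (SE 0.14, adjusted p = 9.4e-11, edgeR). The call held in the 5 other clusterings (1.13 to 1.32) but not with the free RNA of non-muscle cells subtracted (0.39, adjusted p = 0.118, edgeR). That fit subtracted the whole non-muscle profile at the full depth of each sum, so the loss is not read as background. The log2 ratios of summed counts were 1.41 to 1.80 (left) and 0.99 to 1.23 (right) under 9 alternatives. These include subtraction of the members' own non-muscle levels. Unlike Myl1, Myl7 was uneven within the class: 70.0% of left and 52.6% of right PF-like cells had a UMI at full depth, and the median per cell was 6.35 among left and 1.09 among right PF-like cells. The atrial marker list summed to 95.1 and 27.1 in left and right PF-like cells, against 5.96 and 6.85 in ventricular-like cells, but 87.3 and 18.9 of it was Nppa, a natriuretic peptide that Purkinje fibers also express. Of its 8 markers, 6 and 5 had a UMI in these PF-like cells, and the list without Nppa was not compared between the classes. Sln, 1 of these markers, had 1 and 0 UMIs, and Mybphl, which is not on the list, had 1 and 0 UMIs. The 5 erythroid markers (hemoglobin genes and Alas2) summed to 114 in left PF-like cells, against 18.6 in left ventricular-like cells, and to 8.13 against 14.2 in the right library. Their part in the result was not tested.

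For the other 3 chains the difference was small and depended on which cells were taken as PF-like. Myl2 was at 112 and 135 UMIs per 10000 in left and right PF-like cells, against 152 and 150 in ventricular-like cells, and Myl3 at 68.0 and 65.2, against 86.0 and 82.3. In edgeR's test Myl2 fell by 0.65 (SE 0.08, adjusted p = 1.98e-13) and Myl3 by 0.69 (SE 0.09, adjusted p = 1.31e-12) on the log2 scale, where the median of all genes was -0.17. These falls, after TMM scaling, were larger than those of the summed counts in either library. There the left and right log2 ratios were -0.44 and -0.15 for Myl2 and -0.34 and -0.34 for Myl3. Both calls were lost in all 5 other clusterings, with log2 fold changes of -0.41 to -0.35 for Myl2 (adjusted p = 0.174 to 0.378) and -0.37 to -0.32 for Myl3 (0.212 to 0.368). Myl4 was at 16.2 in left PF-like cells, against 13.9 in left ventricular-like cells, and at 10.8 in right PF-like cells, against 21.6 in right ventricular-like cells, so that the libraries went opposite ways. Its value in that test, -0.71 (SE 0.12, adjusted p = 6.82e-08, edgeR), became 0.15 to 0.31 in the other clusterings, with no call (adjusted p = 0.284 to 0.671), and no direction is given for it. In these data 2 members were thus called higher and 3 lower in PF-like cells, where 7.38% and 12.4% of all 11711 genes were (19.8% in all).

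**Figure D3:**
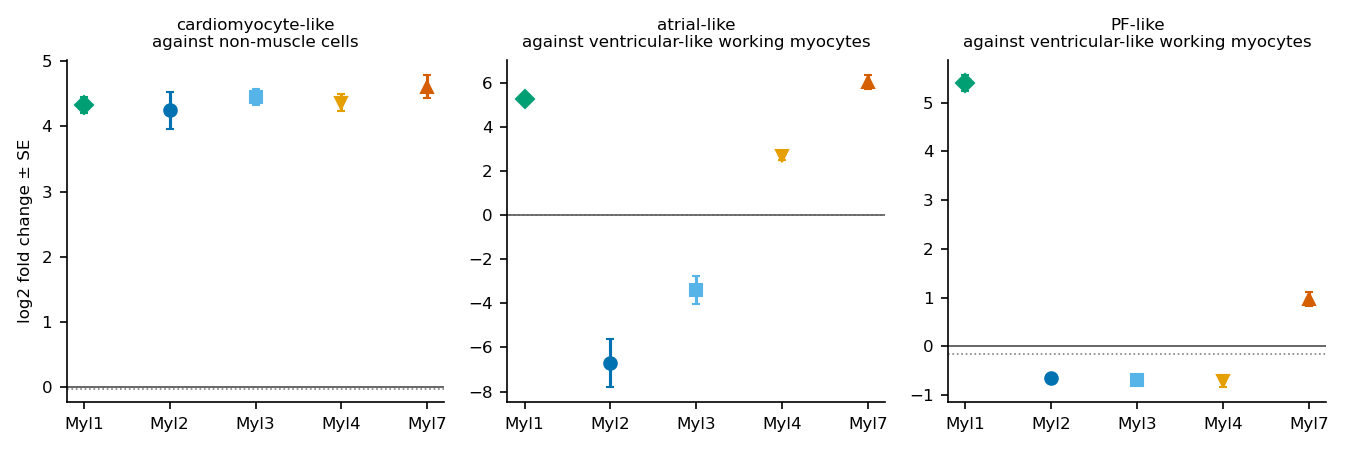
Log2 fold change from edgeR for the 5 genes, with an SE derived from the F statistic of the test. The 3 comparisons are cardiomyocyte-like over non-muscle cells, atrial-like over ventricular-like cells, and PF-like over ventricular-like cells. Dotted lines mark the median of all genes tested. The 5 genes lie between 4.25 and 4.61 in the first comparison, between -6.71 and 6.03 in the next, and in the last Myl1 (5.39) stands apart from the other 4 (-0.71 to 0.97).

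Left and right ventricular-like cells shared their main chains and differed in the minor atrial ones, in opposite directions. Myl2 was at 152 UMIs per 10000 in left and 150 in right ventricular-like cells (log2 ratio 0.02, 0.01 to 0.03), and Myl3 at 86.0 and 82.3 (0.06, 0.06 to 0.07). Myl4 was at 13.9 in left and 21.6 in right cells (log2 ratio -0.64, -0.66 to -0.62), and Myl7 at 4.45 and 2.69 (0.72, 0.68 to 0.76). Myl1 was at 0.109 and 0.106, a ratio whose interval spans 0 (0.04, -0.18 to 0.26). The AVN/His library, with 22.3 Myl4 and 6.13 Myl7, was close to the right library in Myl4 and above both in Myl7. Each side was 1 library, so the ventricle and the library cannot be told apart.

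The opposite differences were present in all 11 ventricular-like clusters with at least 50 cells from each ventricle. Myl4 was lower on the left in 11 of 11 clusters (7.42 to 22.9 left, 12.1 to 27.5 right), and Myl7 was higher on the left in 11 of 11 (2.18 to 10.9 left, 1.99 to 6.76 right). Myl2 was higher on the left in 9 and Myl3 in 8. The clusters share their libraries and are not replicates. The largest left cluster (998 cells, led by Aldoa) held 97 right cells, and the largest right cluster (616 cells, led by Ankrd1) held 143 left cells, so the mix of clusters differed between the ventricles. In the cluster led by Nppa, Myl7 was highest, at 10.9 (left) and 6.76 (right), with Myl1 at 0.373 and 0.720 and Myl4 at 22.9 and 27.2.

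**Figure D4:**
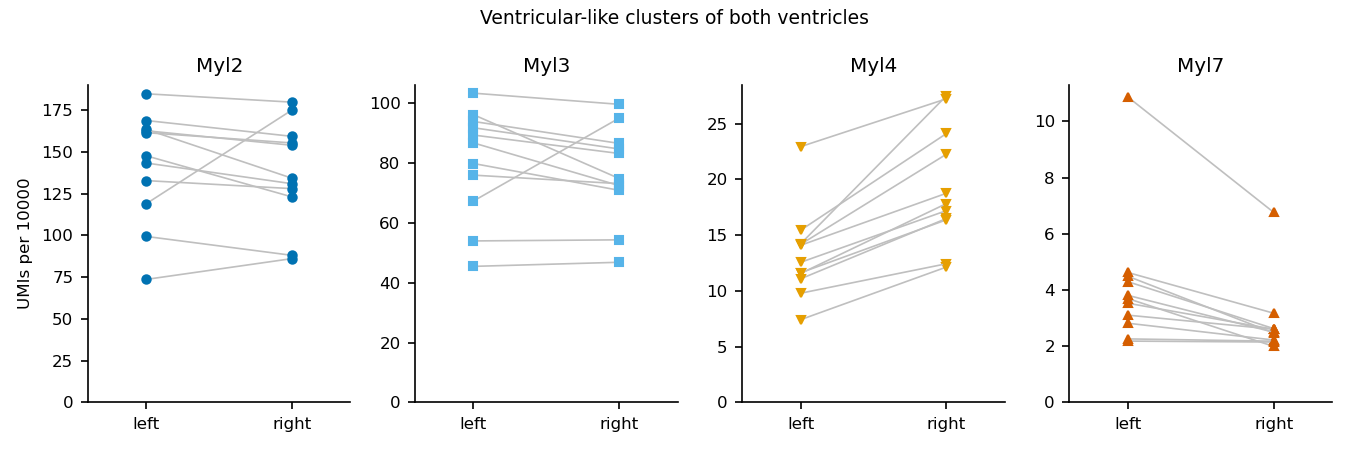
UMIs per 10000 in the left and the right ventricular library, with a panel each for Myl2, Myl3, Myl4 and Myl7; points are 11 ventricular-like clusters and grey lines join a cluster's values. All 11 clusters have less Myl4 and more Myl7 on the left, while the lines of Myl2 and Myl3 run both ways.

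Against non-muscle cells, all 5 light chains were far higher in cardiomyocyte-like cells of the same library. Myl7 was at 311, 24.3, 4.52 and 2.71 UMIs per 10000 in the cardiomyocyte-like cells of the SAN, AVN/His, left and right libraries, against 19.0, 0.996, 0.289 and 0.146 in the non-muscle cells, and Myl2 at 0.353, 133, 151 and 149, against 0.0497, 8.44, 8.84 and 7.79. Myl4 was at 142, 28.9, 13.9 and 21.6, against 8.54, 1.61, 1.08 and 1.41, and Myl3 at 2.56, 74.5, 85.8 and 82.2, against 0.183, 4.70, 4.88 and 4.25. Within each library the cardiomyocyte-like cells were higher, but across libraries the groups overlapped: the non-muscle cells of the SAN library had more Myl7 than the cardiomyocyte-like cells of either ventricle. With the library as a block, edgeR's quasi-likelihood test gave log2 fold changes of 4.33 for Myl1 (SE 0.12, adjusted p = 4.55e-06), 4.25 for Myl2 (0.28, 5.59e-05), 4.46 for Myl3 (0.13, 4.57e-06), 4.36 for Myl4 (0.13, 5.21e-06) and 4.61 for Myl7 (0.17, 8.64e-06). All 5 members were called higher, where 33.8% of 13679 genes were called higher and 36.5% lower (70.3% in all). Without the block, the calls of Myl1 (adjusted p = 0.0564, edgeR) and Myl7 (0.0848) were lost.

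Most non-muscle cells should lack these chains, so their UMIs give a level beside which low levels are read, called free RNA here. The pool kept doublets and the classes set apart below. Epicardial-like cells held 408 of its 2185 Myl7 UMIs in the AVN/His library. In the SAN library, 18 cells led by neuronal genes held 112 of its 970 Myl1 UMIs. What part of the level is free RNA was not tested. In the SAN library, Myl7 over Myl4 UMIs was 2.11 in fibroblast-like, 2.22 in endothelial-like, 2.11 in macrophage-like and 2.11 in neural-like cells, against 2.16 in atrial-like cells. In the ventricular libraries it was 0.254 and 0.343 in left fibroblast-like and endothelial-like cells, against 0.320 in left ventricular-like cells, and 0.0985 to 0.140 in right non-muscle classes, against 0.124 in right ventricular-like cells. In these 3 libraries the classes named carried Myl7 and Myl4 in nearly the proportions of the main myocytes of their own library. In the AVN/His library, which holds both patterns, the ratio was 0.541 in fibroblast-like and 0.373 in endothelial-like cells, against 0.275 in ventricular-like and 2.43 in atrial-like cells. The UMIs were not evenly spread: in macrophage-like cells of the SAN library the 5 richest of 212 cells held 44.4% of the Myl7 UMIs, and with cells of a Scrublet doublet score of at least 0.2 left out the non-muscle level of Myl7 there was 7.83 in place of 19.0.

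Epicardial-like cells departed from these proportions. In the AVN/His library 26 of them held 408 Myl7 and 17 Myl4 UMIs, a ratio with a 95% interval of 14.8 to 41.6, against 0.413 in macrophage-like cells and 0.275 in ventricular-like cells. Myl7 was at 12.8 UMIs per 10000 in epicardial-like cells, against 0.439 in macrophage-like cells and 6.13 in ventricular-like cells, while Myl2 was at 1.73 against 7.34 in macrophage-like cells. After thinning, 65.4% of epicardial-like and 3.57% of macrophage-like cells had a Myl7 UMI (unthinned 92.3% and 21.4%, at median depths of 8802 and 7106.5 UMIs). In the SAN library, where free Myl7 was plentiful, the ratio was 3.06 (2.91 to 3.23) in 180 epicardial-like cells, against 2.11 (2.01 to 2.22) in macrophage-like cells, with a median per cell of 10.1 against 4.37 and 76.1% against 51.9% of thinned cells (unthinned 99.4% and 85.8%, at median depths of 9067 and 5767.5). In epicardial-like cells the 7 cardiomyocyte markers summed to 7.65 (AVN/His) and 11.1 (SAN), against 144 to 157 in the working myocytes of the same libraries. In other clusterings the epicardial-like class of the AVN/His library had 24 to 164 cells.

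**Figure D5:**
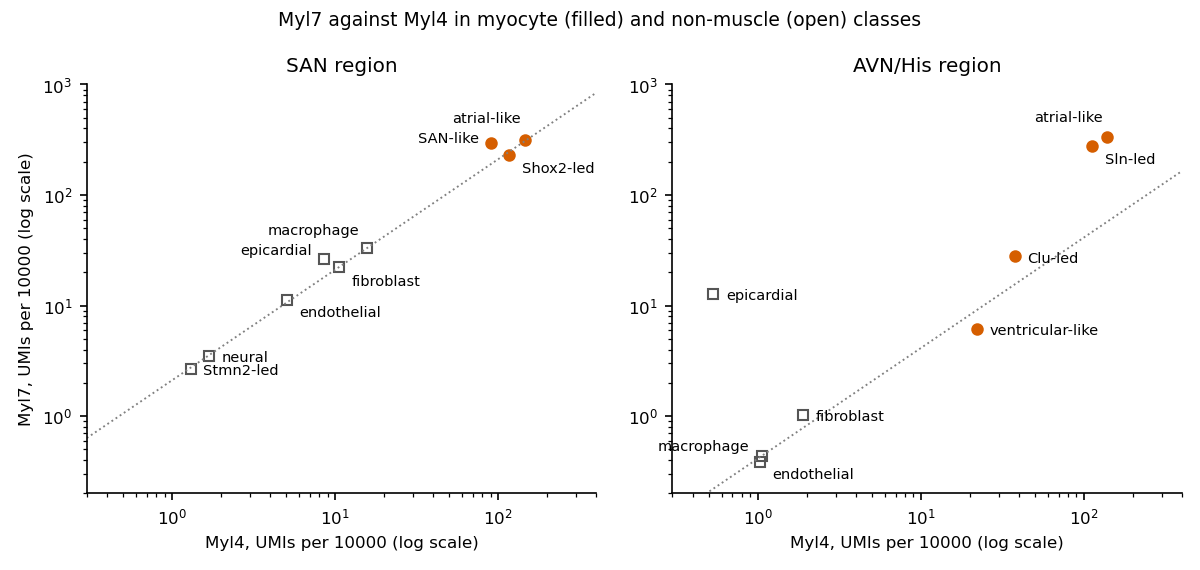
Myl7 against Myl4 in UMIs per 10000 (both log axes) for myocyte classes (filled) and non-muscle classes (open) of the SAN and the AVN/His library; the dotted line has the ratio of macrophage-like cells. Fibroblast-like and endothelial-like cells lie near the line, and epicardial-like cells of the AVN/His library, at 12.8 Myl7, lie far above it.

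A small group of 18 non-muscle cells of the SAN library, led by Nnat, Stmn2 and Gap43, which are neuronal genes, had Myl1 at 8.07 UMIs per 10000, as high as the Shox2-led cluster. It had 112 Myl1 UMIs in 17 of 18 cells (61.1% after thinning), against 1 UMI in 46 neural-like cells and 0.610 per 10000 in macrophage-like cells. Its other light chains were at the free RNA level or under it: Myl4 at 1.30 and Myl7 at 2.67, Myl3 on 1 UMI and Myl2 on none (upper limit 0.216 per 10000). The 7 cardiomyocyte markers summed to 1.73 in these cells, and the cluster fitted none of the marker lists.

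The rest of the myosin machinery was read from 6 lists. In atrial-like against ventricular-like cells, 3 of the 6 other light chains tested rose and 1 fell: the smooth muscle regulatory chain Myl9 (log2 fold change 1.64), the non-muscle chains Myl12b (1.47) and Myl6 (0.79), and Myl6b (-1.26), with a list median of 0.47 against 0.00 for all genes. Of 7 heavy chains, 2 rose and 2 fell (median -0.30): perinatal Myh8 (3.70) and alpha-myosin Myh6 (2.81) rose, and beta-myosin Myh7 (-3.22) and Myh7b (-2.41) fell, the chambers thus differing in heavy as in light chains. Of 9 genes for light chain kinases and phosphatase, 2 rose and none fell (median -0.13): Mylk (2.60), the smooth muscle kinase, and Mylk4 (2.06). Among 7 thick filament partners, Mybphl (8.28) and Myom2 (1.89) rose and Mybpc3 (-0.72) fell (median -0.15). In the thin filament Tpm2 (1.10) rose and Tnni1 (-0.71) fell of 8 tested (median 0.05), and of 3 fast skeletal genes tested Tnnt3 (2.18) rose and Tnni2 (-1.56) fell (median -0.20). These values are edgeR log2 fold changes of the same fit, with adjusted p-values of 1.17e-05 (Myh7) to 0.0182 (Myl6b).

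In PF-like against ventricular-like cells, none of the 3 fast skeletal genes tested was called. Tnni2 had 6 and 1 UMIs in left and right PF-like cells, and Tnnt3 had none, which allows up to 0.0837 per 10000 on the left, above its 0.0168 in left ventricular-like cells, so that no fold and no median is given for the list. Mylpf, the regulatory partner of Myl1 in fast muscle, was at 0.195 and 0.461 UMIs per 10000 in left and right PF-like cells, on 7 and 8 UMIs, against 0.0686 and 0.0626 in ventricular-like cells, and rose by 1.79 on the log2 scale (adjusted p = 0.0105, edgeR). Of the 6 other light chains, Myl6 (-1.41) and Myl12a (-0.96) fell beside it (median -0.32, against -0.17 for all genes). Of 6 heavy chains, Myh6 (0.83) and Myh10 (0.53) rose and Myh7b (-1.17) fell (median 0.33). None of 9 kinase and phosphatase genes rose and Ppp1cb (-0.80), a phosphatase subunit, fell (median 0.26). Of 6 thick filament partners 4 fell and none rose (median -0.40), among them Myom2 (-1.83) and Mybpc3 (-0.64), and of 8 thin filament genes 5 fell and 1 rose (median -0.61), among them Acta1, skeletal actin, with 1 UMI in PF-like cells, and Tnnc1 (-1.17), and Tnnt1, the slow skeletal troponin T, the 1 that rose (0.84).

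Against non-muscle cells, most of the sarcomere lists were called higher, as in 7 of 7 thick filament partners (median 4.35, against -0.04 for all genes), 7 of 8 thin filament genes (median 4.36) and 4 of 6 heavy chains (median 3.57). Of the 6 other light chains, Myl9 (3.53), Mylpf (2.03) and Myl6b (1.48) rose and Myl12b (-1.81) fell (median 0.65). Of 9 kinase and phosphatase genes 7 rose and 2 fell (median 0.50), the cardiac light chain kinase Mylk3 (4.25) and Mylk4 (4.07) furthest up and Mylk (-2.63) furthest down. Of 3 fast skeletal genes 2 rose (median 2.51).

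Across the 9 sums of myocyte classes with at least 50 cells, the genes most like each member among 3699 were found by Pearson correlation of log2(CPM + 1), as a description over sums that share libraries. For Myl1 these were Fam49a (0.986), Stard10 (0.985) and Creb3l2 (0.983), and for Myl4 Dkk3 (0.983), Camk1d (0.983) and Fbln1 (0.982). For Myl7 they were Frem2 (0.993), Maged2 (0.991) and Tbx5 (0.989), the last a transcription factor of the atria and conduction system. Stard10 and Dkk3 were among the markers that named the atrial-like class. For Myl2 they were Mrpl36 (0.988), Myh7 (0.967) and Ddc (0.957), and for Myl3 Mrpl36 (0.959), Pfdn4 and, at 0.943, Acads. Among the members, Myl1, Myl4 and Myl7 were correlated at 0.970 to 0.976 and Myl2 and Myl3 at 0.938, while every pair across these groups was negative (-0.88 to -0.80). PF-like cells were too few to enter.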

How the data were processed

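The authors counted reads with Cell Ranger against mm10 (version not given in the sources used here) and deposited UMI counts per gene and cell, with no normalization. Barcodes were kept if they had 500 genes and 1000 UMIs or more; the upper limits (60000 genes) removed none. Doublets were not removed. Cells of each zone were clustered with leidenalg 0.10.2 in scanpy 1.11.5 (Python 3.11.15) on 2000 variable genes less the light chains and contractile lists, with UMI number and ribosomal share regressed out, 10 principal components and 30 neighbors at resolution 0.8; the AVN/His myocytes were clustered again at 3, chosen after seeing the clusters as the lowest value that parted AVN/His-like from atrial-like cells. A marker counted where 10% of cells or more had it and its natural log fold change reached 0.25. Counts were summed per library and class and compared in R 4.3.3 with edgeR 4.0.16 (filterByExpr, TMM, quasi-likelihood test, Benjamini-Hochberg adjustment at 0.05 over all genes tested), with the library as a block except between atrial-like and ventricular-like cells. Each SE is the size of the log2 fold change over the square root of the test's F statistic, so it restates that statistic. The edgeR tests were also run on simulated counts with known changes. Free RNA was taken from the non-muscle cells, with doublets and all their classes kept. For the tests, their whole profile was scaled to the full depth of each sum and subtracted. For the ratios and shares, only the members' own levels in non-muscle cells were subtracted. The genes named were the 5 members, up to 4 called genes of each fixed list and test with the largest change, and the 3 genes most like each member; Sln, Nppa, Tbx3 and genes that lead a cluster were named after their values were seen. Members and lists were chosen with earlier results of these data known. Alternatives included other clusterings, DESeq2 1.42.0 (size factors and Wald test), no filter, no block, stricter cells, doublet scores, thinning to 1500 UMIs and leaving out each library.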

Additional observations from a re-analysis of the deposited data

Results flagged for a closer look

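Myl4 was on opposite sides in the libraries when PF-like cells were set against ventricular-like cells: the log2 ratio was 0.22 in the left library and -1.01 in the right one. Each side is 1 library, with 40 and 19 PF-like cells, and the difference between the libraries was not tested. In the 5 other clusterings, with 72 to 83 right PF-like cells, the ratio of the right library was 0.01 to 0.05 and that of the left library 0.63 to 0.90.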

How the results depend on the processing

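Counts of called genes are given for alternatives that moved them by more than 1.5 times, and for each library left out whether or not they moved. For cardiomyocyte-like against non-muscle cells, 9615 genes were called, 6308 with macrophages alone as the non-muscle cells and 8352 to 9927 with each library left out in turn. For atrial-like against ventricular-like cells, 2828 were called, 264 with free RNA subtracted, and 468 (without the SAN library) to 3399 with a library left out, of which 1835 without the right ventricular library. For PF-like against ventricular-like cells, 2315 were called, 1103 by DESeq2's Wald test and 1036 with free RNA subtracted. Without 1 library that fit had no residual degrees of freedom and gave values only. All 5 members kept their direction in the first and the next of these comparisons under every alternative run. In the PF-like comparison Myl1 and Myl7 did so, Myl2 and Myl3 kept their sign, and Myl4 (-0.71) reversed to 0.16 and 0.31 at 0.5 and 1.5 times the resolution, 0.25 with 20 principal components, 0.15 with all variable genes and 0.21 with no regression; DESeq2's Wald test gave -0.68 (adjusted p = 0.0662). In the right library its log2 ratio of -1.01 became 0.037 and 0.051 at 0.5 and 1.5 times the resolution, 0.014 with 20 principal components, 0.034 with all variable genes and 0.00924 with no regression. The cause was not tested.

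The log2 ratio of Myl4 in SAN-like over atrial-like cells (-0.68) was -0.75 with all variable genes, -0.53 and -0.75 at 0.5 and 1.5 times the resolution and -0.73 with free RNA subtracted; at 0.5 times, SAN-like cells took in the Shox2-led cluster, and Myl1 (-0.95) moved to -0.12, Myl2 (1.09) to 3.41 and Myl3 (-2.14) to -0.50, with -2.62 the lowest of Myl3 in the other clusterings. Left over right Myl4 (-0.64) was -0.67 with 20 principal components. Myl3 in Clu-led over ventricular-like cells (0.04) was -0.32 with no regression and -0.027 at 0.5 times the resolution. The regulatory share of summed Clu-led counts (19.1%) was 19.8% with all variable genes, 9.16% with no regression (21 cells), 20.4% and 17.6% at 0.5 and 1.5 times the resolution and 19.7% with free RNA subtracted. The median essential share of left ventricular-like cells (11.1%) was 10.0% after thinning, 13.9% from summed counts and 10.6% with free RNA subtracted. Free Myl7 in the SAN library (19.0 UMIs per 10000) was 7.83 with Scrublet scores under 0.2, 20.4 with all variable genes, 17.4 with 20 principal components, 17.3 with no regression and 14.0 after thinning. Clu-led cells were not found with 20 principal components, nor the Sln-led and Shox2-led clusters at 0.5 times the resolution, and free RNA could not be subtracted from non-muscle cells. No paired analysis was possible because each region has 1 sample; the library block stands in the tests that allow it.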
